A study of Homo sapiens with 8 samples.

Results

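Cytochrome c oxidase, the last complex of the mitochondrial respiratory chain, was examined in SH-SY5Y cells that expressed the nuclear receptor ERRg. The gene set held 40 of the 67060 genes counted. It was made of the protein-coding nuclear genes whose symbols begin with COX or COA and a digit, together with SCO1, SCO2, SURF1, TACO1, PET100, PET117 and CYCS. They fall into 17 subunits, 22 assembly factors and CYCS. In the ERRg group (4 libraries), SH-SY5Y cells had received an adenovirus encoding BioID, a biotin ligase, fused to Flag-tagged ERRg (BioID-Flag-Esrrg). In the GFP group (4 libraries), the adenovirus encoded BioID fused to green fluorescent protein and a signal for nuclear import (BioID-GFP-NLS). SH-SY5Y is an established human neuroblastoma line, which the labels call a neuronal progenitor. Cells of both groups were grown to 80% confluence, received 0.5 ul of virus and were taken for RNA after 48 h. Both groups therefore carried an adenovirus and the ligase. No uninfected cells were analysed here, and all libraries come from 1 cell line.

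Cytochrome c oxidase takes electrons from cytochrome c and passes them to oxygen while moving protons across the inner mitochondrial membrane. Its catalytic core is encoded by the mitochondrial genome (MT-CO1, MT-CO2 and MT-CO3), and a shell of small nuclear-encoded subunits surrounds the core. Several of these subunits exist as paired isoforms with different tissue ranges. Assembly factors are not part of the finished enzyme: they insert heme and copper, help translate or stabilise the core subunits, and deliver them to each other. ERRg is an orphan nuclear receptor known for activating genes of oxidative metabolism in heart, muscle and brain, often together with PGC-1 coactivators.

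Gene reads per library numbered 21.02 to 23.01 M in ERRg and 27.7 to 35.5 M in GFP. ESRRG, the gene that was delivered, stood at 824, 711, 888 and 810 counts per M reads (CPM) in the ERRg libraries and at 32.7, 33.1, 37.1 and 36.8 CPM in the GFP libraries, a log2 difference of 4.53 (p = 0.0286 by an exact permutation test, two-sided; 4 libraries against 4 can give no smaller p). The groups also differed as libraries: reads outside annotated exons made up 46.7% ± 1.31 of reads in ERRg and 20.9% ± 3.58 in GFP (SD, n = 4 each). Reads aligned more than once made up 6.41% ± 0.449 in ERRg and 11.9% ± 1.33 in GFP. Within ERRg, replicates 1 and 2 resembled each other, as did replicates 3 and 4 (chi-square per gene 2.9 and 5.02, against 9.87 to 22.4 across these pairs). GFP replicate 2 had the smallest share of reads outside exons, at 16.2%. Of 12 noradrenergic neuroblastoma markers, 9 exceeded 1 CPM and their summed level was 438 to 523 CPM in ERRg and 767 to 884 CPM in GFP. TH and CHGA, from the same list, had 0 reads in all 8 libraries. Of the other marker lists, 4 of 5 epithelial genes exceeded 1 CPM (sum 172 to 243 CPM in ERRg and 240 to 320 CPM in GFP), and none of 6 muscle, 5 testis or 5 blood genes did.

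The nuclear subunits were lower in ERRg libraries as a group. Of the 12 subunits that passed the low-count filter, 11 fell, 0 rose and COX7A1 was not called (edgeR quasi-likelihood test, Benjamini-Hochberg adjusted p under 0.05 over 21993 genes). The same test called 35.9% of all tested genes lower and 38.8% higher, and called 50.7% of the 13379 nuclear coding genes among them lower and 28.9% higher. The median log2 fold change, ERRg over GFP, was -0.97 over the 12 subunits, 0.094 over all genes tested and -0.30 over the nuclear coding genes. At an unadjusted p under 0.05 none of the 12 rose either, and DESeq2 called none higher. In these bulk samples, less RNA per cell cannot be told apart from fewer cells that express a gene. Nuclear subunit reads made up 0.116% ± 0.0107 of gene reads in ERRg and 0.172% ± 0.0156 in GFP (SD, n = 4 each).

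COX8A, the ubiquitous form of a small membrane-spanning subunit, fell furthest under TMM scaling. It had 9.18, 7.74, 11.4 and 9.11 CPM in the ERRg libraries and 37.5, 56.2, 36.4 and 39.8 CPM in the GFP libraries. All 4 ERRg libraries lay below all 4 GFP libraries, and GFP replicate 2 was the highest. The log2 fold change was -2.18 (SE 0.141, adjusted p = 9.94e-11 by edgeR's quasi-likelihood test). The gene (ENSG00000176340.4) lies on the plus strand of chromosome 11 from 63974607 to 63976543 on GRCh38. On the same strand, it shares 34.5% of its exon bases with AP000721.1. Reads counted as ambiguous made up 5.44% of reads in ERRg and 12.1% in GFP. The part of this overlap in the COX8A values was not tested.

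COX6B1, which faces the intermembrane space beside the cytochrome c docking site, had 83.9, 85.6, 121 and 98.2 CPM in ERRg and 246, 334, 229 and 251 CPM in GFP. Its log2 fold change was -1.44 (SE 0.125). COX5B, a zinc-binding subunit on the matrix side, had 49.3, 49.02, 71.5 and 57.6 CPM in ERRg and 132, 185, 119 and 141 CPM in GFP, with a log2 fold change of -1.34 (SE 0.131). For COX6B1 and COX5B, the highest ERRg library was replicate 3 and the highest GFP library was replicate 2, and the groups did not overlap. COX7A2, the widely expressed form of subunit 7A, had 123, 120, 154 and 144 CPM in ERRg and 289, 372, 274 and 279 CPM in GFP (log2 fold change -1.17, SE 0.109).

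COX6A1, the form of subunit 6A found in most tissues, had 29.3, 24.8, 32.6 and 25.6 CPM in ERRg and 51.6, 72.1, 54.6 and 48.1 CPM in GFP. Its log2 fold change was -1.01 (SE 0.121). COX4I1, the ubiquitous form of subunit 4 and an early partner of MT-CO1 in assembly, had 190, 182, 245 and 226 CPM in ERRg and 395, 482, 387 and 400.5 CPM in GFP, with a log2 fold change of -0.98 (SE 0.106). For COX7A2, COX6A1 and COX4I1 too, each ERRg library lay below each GFP library, and GFP replicate 2 was the highest.

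The other 5 subunits that fell were COX7C (-0.95), COX7A2L (-0.68), COX7B (-0.48), COX6C (-0.40) and COX5A (-0.30), given as log2 fold changes with SEs of 0.093 to 0.101. COX5A is the partner that joins COX4I1 on the core early in assembly. COX6C overlapped between the groups, with 31.5 to 37.0 CPM in ERRg and 36.6 to 49.3 CPM in GFP. COX5A did not, at 63.2 to 83.1 CPM in ERRg and 83.3 to 103 CPM in GFP. In all, 10 of the 12 subunits lay lower in ERRg with no overlap, against 34.6% of all genes tested. That share includes non-coding genes and was not counted over nuclear coding genes alone. Nuclear coding genes were called lower more often than all genes (50.7% against 35.9%). COX5A turned positive under upper-quartile scaling (0.005), library totals (0.11) and scaling on coding genes alone (0.015), COX6C did so under library totals (0.012), and neither was called there. Upper-quartile factors and library totals move the median of all genes to 0.40 and 0.50 and the calls to 50.2% higher with 27.5% lower and 53.6% higher with 24.5% lower. Under each, and under scaling on coding genes alone, 8 of the 12 subunits were lower and 0 higher. There COX7B, COX6C and COX5A lost their call. Scaling on coding genes alone called 5322 of its 13433 genes lower and 5474 higher, with a median of 0.018.

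**Figure D1:**
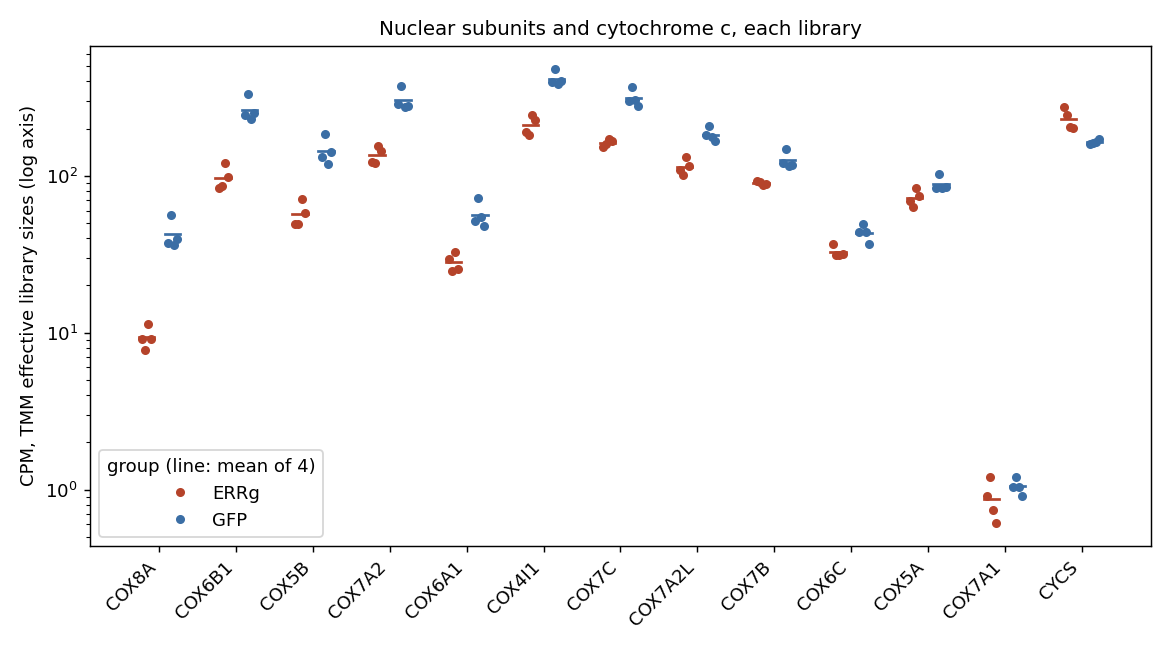
CPM on a log axis in each library for the 12 subunits tested and CYCS, with the 4 ERRg libraries left of the 4 GFP libraries and the mean as a line. COX8A sits at 7.74 to 11.4 CPM in ERRg and 36.4 to 56.2 CPM in GFP, COX7A1 lies near 1 CPM in both groups, and CYCS is the single gene shown that is higher in ERRg.

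Fold change moved with GC content over the nuclear coding genes, and the subunits were read against that. GC content was taken from the principal coding transcript. Over the 13379 nuclear coding genes the correlation of log2 fold change with GC content was r = -0.65, a description across genes of the same 8 libraries. Over the 33 members tested it was r = -0.54. Coding genes were divided into 5 bands of GC content with equal numbers of genes. In the band from 52% to 58.7% GC, 76.3% were lower in ERRg with a median log2 fold change of -0.87. All 9 members in that range were lower, with a median of -1.11; they are COX8A, COX6B1, COX6A1, COX4I1, COA3, COX14, COX19, PET100 and TACO1. In the band from 31.1% to 41.2% GC, 8.11% of coding genes were lower with a median of 0.55. COX7C, at 38.95% GC, went the other way from that median with a log2 fold change of -0.95. Of the 4 members in that band, 2 were lower, COX7C and COX18, and the median over the 4 was -0.32. In the band from 41.2% to 46% GC, 6 of 11 members were lower, with a median of -0.35. Of coding genes in that band 26.4% were lower, with a median of 0.13. In the band from 46% to 52% GC, 6 of 8 members were lower, with a median of -0.61. There 56.5% of coding genes were lower, with a median of -0.355. In the band from 58.7% to 74.7% GC, 86.3% of coding genes were lower, with a median of -1.225. COX7A1, the 1 member tested there, was not called (-0.275).

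**Figure D2:**
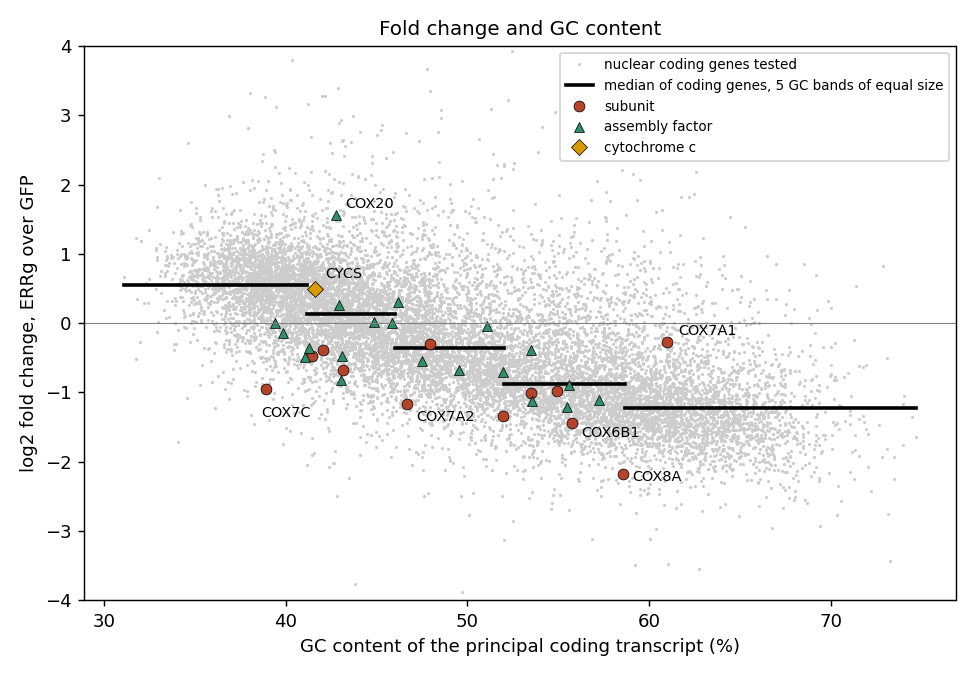
Log2 fold change (ERRg over GFP) against the GC content of the principal coding transcript for nuclear coding genes (grey), subunits, assembly factors and cytochrome c, with black lines for the coding median in each of 5 GC bands; 12 coding genes lie outside the vertical axis. COX7C, at -0.95, and COX8A, at -2.18, lie below the medians of their bands (0.55 and -0.87), and COX20, at 1.56, lies above its own (0.13).

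A fit with library-specific offsets, which removes each library's trend with GC content, transcript length and gene span over coding genes, gave a shorter list. It called 8 of the 12 subunits lower, 1 higher and 3 not (41.3% of coding genes were lower and 29.2% higher in that fit), with a median log2 fold change of -0.52 against -0.08 over coding genes. The log2 fold change with offsets was -1.11 for COX7C, -0.94 for COX7A2L, -0.91 for COX8A, -0.81 for COX7A2, -0.56 for COX6C, -0.55 for COX7B, -0.49 for COX5B and -0.47 for COX6B1. In this fit COX7C and COX7A2L lay below COX8A. The log2 fold change was -0.033 for COX4I1, -0.031 for COX6A1 and 0.029 for COX5A, with SEs of 0.055 to 0.078, and none of these was called. Such offsets also remove any effect of ERRg that itself tracks GC content or length. With a GC offset alone, 10 subunits were lower and 1 higher (40.3% and 31.6% of coding genes), as with offsets from the longest transcript (40.6% and 29.8% of coding genes). When each gene was tested against a log2 fold change of 1, 3 subunits were lower and 1 assembly factor, COX20, was higher (10.5% and 7.69% of all genes tested).

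Of the 33 members tested, 8 were called lower in each of 23 alternative settings (24.2%, against 22.7% of nuclear coding genes): COX8A, COX6B1, COX5B, COX7A2, COX7C and COX7A2L among the subunits, and COA6 and COA8 among the assembly factors. CYCS and COX20 were called higher in each (6.06%, against 14.1% of nuclear coding genes). The pooled share lower is close to that of coding genes, but the classes differed. Of the 20 assembly factors tested, COA6 and COA8 alone were among the 8, and the rest came from the 12 subunits tested. The 23 do not include the test against a log2 fold change of 1, in which the members called were COX8A, COX6B1, COX5B and COX20.

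**Figure D3:**
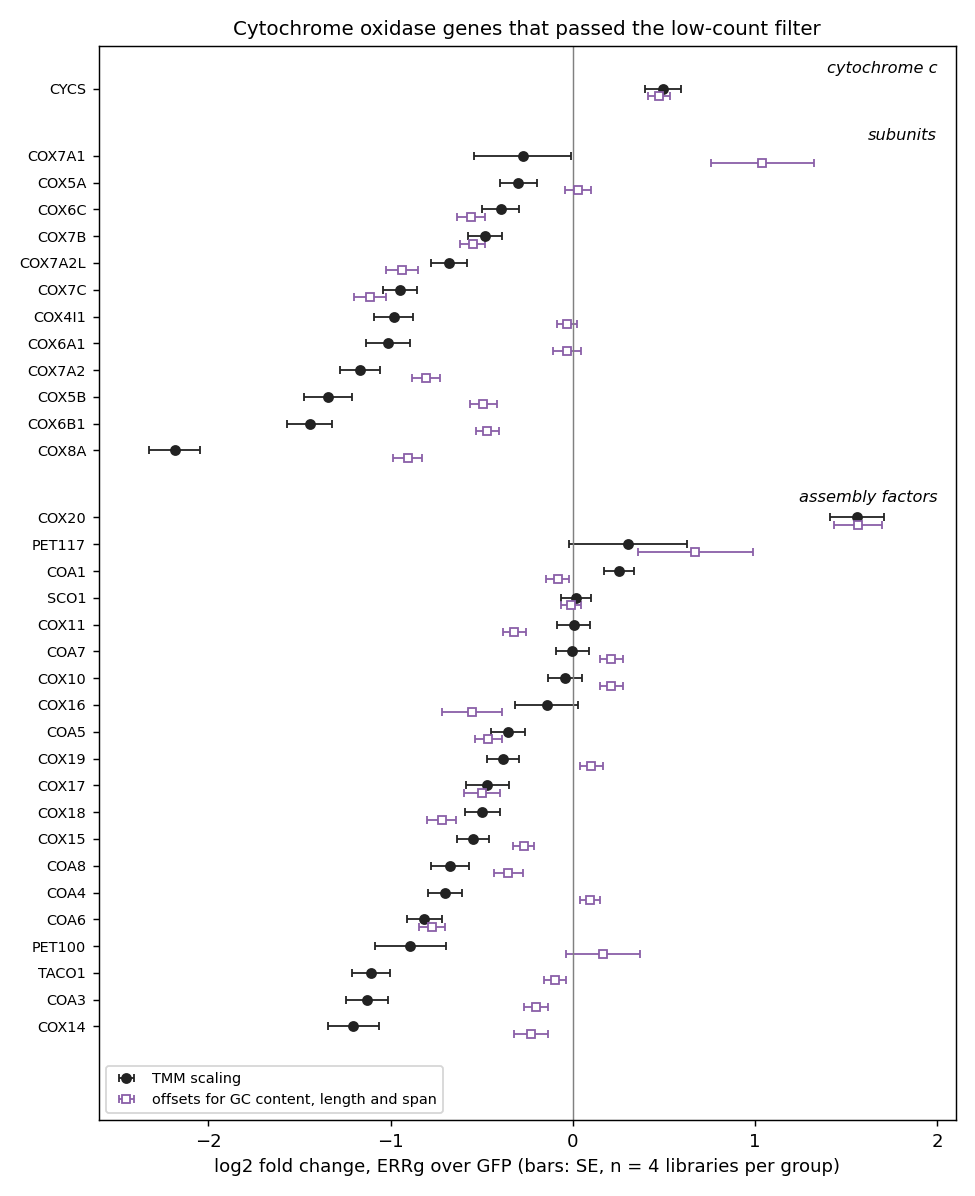
Log2 fold change (ERRg over GFP) with its SE for the 33 members that passed the filter, by class, under TMM scaling (filled circles) and after the offset correction for GC content, length and span (open squares). Of the subunits, 11 were called lower under TMM and 8 with offsets; COX4I1 was -0.98 under TMM and -0.033 with offsets, COX5A turned positive (0.029) and COX7A1 turned positive (1.04).

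Paired isoforms were compared within a library, where scaling cancels. Of the 8 pairs, 2 had both genes past the filter. COX7A1, the heart and muscle form of subunit 7A, had 22, 32, 18 and 15 reads in ERRg and 29, 35, 29 and 22 reads in GFP. That is 7.36, 10.0, 4.80 and 4.25 COX7A1 reads per 1000 COX7A2 reads in ERRg and 3.59, 3.25, 3.81 and 3.24 in GFP. All 4 ERRg ratios lay above all 4 GFP ratios, with replicates 1 and 2 higher than 3 and 4. The mean log2 ratio was -7.33 ± 0.57 in ERRg and -8.17 ± 0.11 in GFP (SD, n = 4 each), a difference of 0.84 or 1.80-fold (exact two-sided permutation p = 0.0286, adjusted over 2 pairs 0.0286). Per base of transcript, COX7A1 was at 0.00655 of COX7A2 in ERRg and 0.00351 in GFP. COX7A1 itself had 0.905, 1.20, 0.739 and 0.610 CPM in ERRg and 1.04, 1.21, 1.04 and 0.906 CPM in GFP, which overlap, and its log2 fold change of -0.28 (SE 0.265) was not called (adjusted p = 0.351 by edgeR). It was 1.04 (SE 0.28) with offsets (adjusted p = 0.00187).

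COX7A2L, a paralog of COX7A2 known as a supercomplex factor that tethers cytochrome c oxidase to complex III, had 109, 102, 131 and 115 CPM in ERRg and 181, 207, 178 and 166 CPM in GFP. By counts it fell less than COX7A2, though not with offsets. Reads of COX7A2L per 1000 reads of COX7A2 were 888, 847, 852 and 802 in ERRg and 628, 558, 650 and 596 in GFP. The groups did not overlap, and the log2 ratio was higher by 0.48 or 1.40-fold in ERRg (exact two-sided permutation p = 0.0286, adjusted 0.0286). Once the offsets were applied the difference was -0.14 (exact permutation, adjusted p = 0.0857). The same offsets gave 1.80 for COX7A1/COX7A2 (exact permutation, adjusted p = 0.0571). Adjusting over 2 pairs turns the smallest exact permutation p, 0.0286, into 0.0571 when the other pair's p is higher. Either pair is therefore called only if both reach 0.0286. Leaving out any 1 GFP library also ended the call of both ratios (exact permutation, adjusted p = 0.0571 to 0.0857). For COX7A2L/COX7A2 the groups still did not overlap, and the log2 difference was 0.441 to 0.515 over the fits without 1 library. Its adjusted p was at most 0.0571 there, so the lost call does not show that this ratio rests on 1 GFP library.

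**Figure D4:**
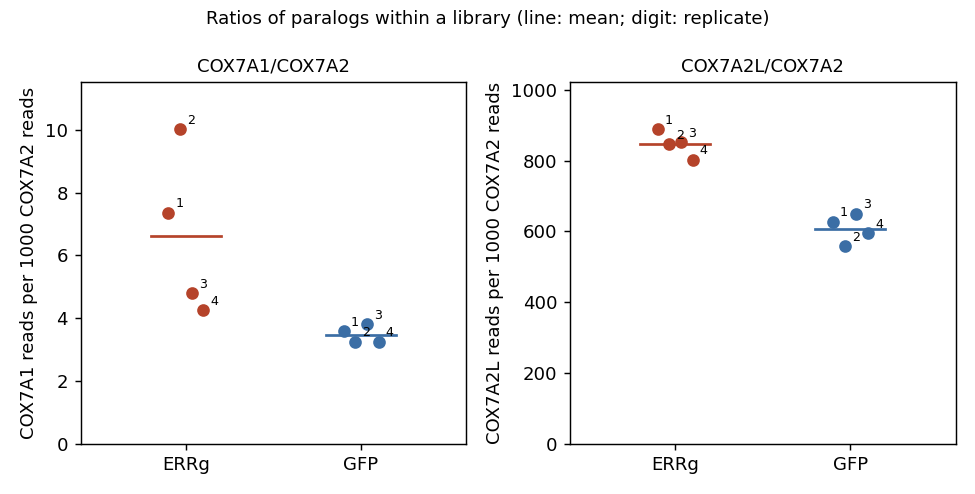
Reads of COX7A1 (left panel) and COX7A2L (right panel) per 1000 reads of COX7A2 in each library, ERRg left of GFP, with the group mean as a line and the replicate number beside each point. The ERRg ratios, 4.25 to 10.0 and 802 to 888, lie above the GFP ratios, 3.24 to 3.81 and 558 to 650; the COX7A2L difference is -0.14 once the offsets are applied.

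The other tissue-restricted isoforms were near 0 reads in both groups, so no fold change is given. COX4I2, the lung form of subunit 4 that hypoxia induces, had 1 read in ERRg and 5 in GFP, against 20994 and 45538 reads of COX4I1. COX6A2, the heart and muscle form, had 2 reads in ERRg and 2 in GFP. The testis forms COX6B2, COX7B2 and COX8C had 5, 0 and 0 reads in ERRg and 38, 1 and 0 reads in GFP. The COX6B2 share of COX6B reads was 0.0516% in ERRg (exact 95% interval 0.0167 to 0.120) and 0.131% in GFP (0.0926 to 0.180), and 17 of the 38 GFP reads came from replicate 4. For COX8C, 0 reads allow a share of up to 0.322% of COX8 reads in ERRg and 0.0644% in GFP. These intervals and limits cover counting error only.

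The assembly factors were more mixed than the subunits. Of the 22, 20 passed the filter: 12 fell, 2 rose and 6 were not called, with a median log2 fold change of -0.43. As above, 35.9% of all genes tested were lower and 38.8% higher. Of the nuclear coding genes, 50.7% were lower and 28.9% higher, with a median of -0.30. Groups did not overlap for 12 lower and 2 higher factors, against 34.6% and 33.9% of all genes tested. Those shares include non-coding genes and were not counted over nuclear coding genes alone. With offsets 10 were lower and 3 higher, with a median of -0.15. In that fit 41.3% of coding genes were lower and 29.2% higher, with a median of -0.08. With longest-transcript offsets 9 factors were lower and 7 higher (40.6% and 29.8% of coding genes). Their median was -0.051, against -0.073 over coding genes. In each of these fits the factors' median lay nearer that of the coding genes than the subunits' median did. Under upper-quartile factors 8 were lower and 6 higher (27.5% and 50.2% of all genes tested), and under library totals 7 and 6 (24.5% and 53.6%). COX17, COX18, COX19 and COA5 lost their call under both, and COX15 under library totals. Assembly factor reads made up 0.0837% ± 0.00119 of gene reads in ERRg and 0.0783% ± 0.00178 in GFP (SD, n = 4 each).

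Of factors that act on MT-CO1, COX14, COA3, TACO1 and PET100 fell under TMM scaling, COA1 rose, COX11 was not called and SURF1 was not tested. COX14, which with COA3 holds newly made MT-CO1 and feeds back on its translation, had 5.97, 6.84, 9.52 and 8.33 CPM in ERRg and 15.2, 21.04, 16.5 and 17.8 CPM in GFP (log2 fold change -1.20, SE 0.139). COA3 had 23.3, 20.8, 29.1 and 28.5 CPM in ERRg and 53.9, 65.4, 49.01 and 53.6 CPM in GFP (-1.13, SE 0.115), and 42.5% of its exon bases lie opposite exons of WNK4. TACO1, a translational activator of MT-CO1, had 28.2, 28.0, 36.5 and 32.4 CPM in ERRg and 60.01, 76.7, 66.0 and 67.1 CPM in GFP (-1.11, SE 0.105). PET100, needed for joining early subunits, had 1.07, 1.47, 1.27 and 1.30 CPM in ERRg and 2.61, 2.38, 2.38 and 2.14 CPM in GFP (-0.89, SE 0.194). In each of these 4 genes the groups did not overlap. With offsets the log2 fold changes were smaller in size: -0.23 for COX14 and -0.20 for COA3, which were still called, -0.098 for TACO1 and 0.17 for PET100, which were not. With offsets taken from the longest transcript COA3 turned positive (0.071) and COX14 was -0.083, neither called, PET100 was 0.077, not called, and TACO1 was -0.245, called. COA1, which also binds newly made MT-CO1, was higher (0.25, SE 0.082, adjusted p = 0.00872 by edgeR) and turned to -0.083 with offsets. SURF1, which acts in heme insertion into MT-CO1, had 0 reads in all 8 libraries. Its neighbours on chromosome 9 (MED22, RPL7A, SURF2, SURF4 and SURF6) had at most 2 reads in any library, so the 0 does not show that the RNA is missing.

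Among factors of the copper route to MT-CO2 and of its insertion, COA6, COX17, COX18 and COX19 fell under TMM scaling, SCO1 and COX16 were not called, and SCO2 was not tested. COA6, which works with the SCO proteins on the copper site of MT-CO2, had 20.6, 20.8, 22.2 and 18.5 CPM in ERRg and 34.2, 39.0, 38.03 and 33.3 CPM in GFP (-0.82, SE 0.096). Its log2 fold change was -0.77 with offsets. The copper chaperones COX17 (-0.47) and COX19 (-0.38), and COX18 (-0.50), which inserts MT-CO2 into the membrane, were the others that fell, but COX19 was above 0 under library totals (0.021) and with offsets (0.10). SCO1, a copper carrier to MT-CO2, was not called: it had 106 to 112 CPM in ERRg and 101 to 116 CPM in GFP, with a log2 fold change of 0.018 (SE 0.083) that turned to -0.008 with offsets. Its partner SCO2 had 1 read in ERRg and 15 in GFP, and all its exon bases are shared on the same strand with TYMP and a further identifier for SCO2. COX16, which joins MT-CO2 to MT-CO1, was not called (-0.14, SE 0.175). It was positive under upper-quartile factors, library totals and coding genes alone (0.16 to 0.27) and -0.55 with offsets. On the same strand, COX16 shares 36.0% of its exon bases with SYNJ2BP-COX16, and COX19 shares 21.4% with ADAP1.

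COX20, a chaperone of newly made MT-CO2, rose. It had 9.96, 11.2, 8.09 and 9.43 CPM in ERRg and 3.996, 2.83, 2.84 and 3.50 CPM in GFP, with no overlap. The log2 fold change was 1.56 (SE 0.148, adjusted p = 8.54e-09 by edgeR), 1.57 with offsets, and 1.32 to 1.96 over the alternatives. However, 3502 of its 4864 exon bases (72.0%) lie opposite exons of HNRNPU, an abundant nuclear protein's gene at 1010 to 1162 CPM in ERRg and 1151 to 1414 CPM in GFP. COX20 reads per exon base were 3.97%, 4.66%, 3.71% and 4.28% of those of HNRNPU in ERRg and 1.37%, 0.959%, 0.930% and 1.41% in GFP. Over 672 non-coding genes lying opposite coding exons, the median of the same percentage was 3.14% to 3.52% in ERRg and 1.95% to 2.31% in GFP. COX20 stood above that median in all 4 ERRg libraries and below it in all 4 GFP libraries. The part of opposite-strand reads in the COX20 result was not tested. Reads of its 2 pseudogenes came to 36.4% of COX20 reads in ERRg and 110% in GFP.

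**Figure D5:**
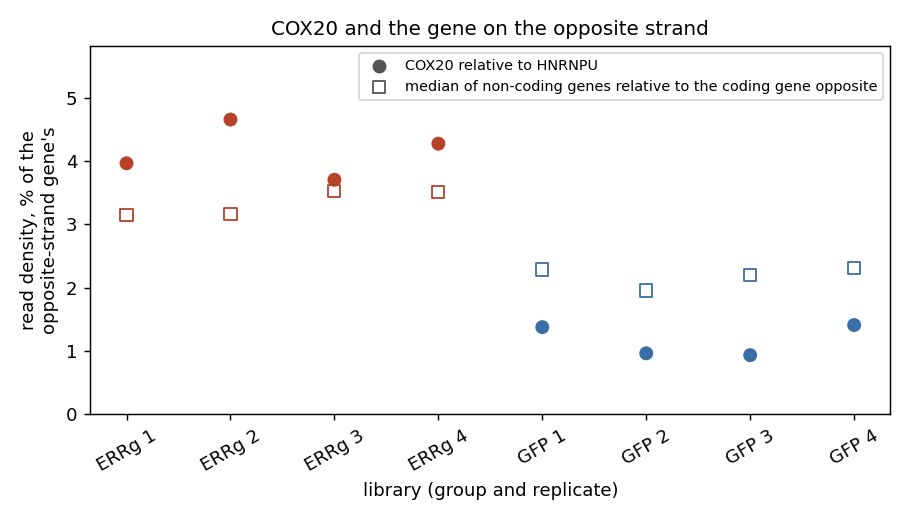
Reads per exon base of COX20 as a percentage of those of HNRNPU on the opposite strand (filled circles), and the median of the same percentage over 672 non-coding genes opposite coding exons (open squares), in each library, ERRg left of GFP. COX20 lies at 3.71% to 4.66% in ERRg and 0.930% to 1.41% in GFP, while the median lies at 3.14% to 3.52% and 1.95% to 2.31%.

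The heme a enzymes differed from each other. COX15, heme A synthase, fell (-0.55, SE 0.088) with 52.7 to 55.2 CPM in ERRg and 72.3 to 87.3 CPM in GFP. It was -0.27 with offsets, and shares 25.6% of its exon bases with AL133353.2 on the same strand. COX10, which makes heme O, the substrate of COX15, was not called under TMM scaling (-0.042, SE 0.092) and was higher with offsets (0.21, SE 0.063). COX11, which delivers copper to MT-CO1, was not called under TMM (0.004, SE 0.091). With offsets it was -0.32 from the principal transcript and 0.33 from the longest transcript, both called, so no direction is given. COA4 (-0.70), COA5 (-0.35) and COA8 (-0.67) fell under TMM, COA4 turned to 0.094 with offsets, and COA5 turned to 0.051 under library totals. COA7 (-0.002, SE 0.091) was not called under TMM and was 0.21 with offsets. PET117, which rests on 11 to 19 reads per library and shares 62.4% of its exon bases with KAT14, was not called (0.30, SE 0.322).

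CYCS, the soluble electron carrier that cytochrome c oxidase oxidises, rose while the subunits fell. It had 273, 244, 205 and 201 CPM in ERRg and 158, 162, 163 and 171 CPM in GFP. All 4 ERRg libraries lay above all 4 GFP libraries, and ERRg replicates 1 and 2 stood above replicates 3 and 4. The log2 fold change was 0.50 or 1.41-fold (SE 0.098, adjusted p = 0.000129 by edgeR). It was 0.47 with all offsets, but 0.155 (adjusted p = 0.0271) with a GC offset alone. Without ERRg replicates 1 and 2 it was 0.29 (adjusted p = 0.00924) and without replicates 3 and 4 it was 0.64. CYCS (ENSG00000172115.9) lies on the minus strand of chromosome 7 from 25120091 to 25125361, and its 42 pseudogenes held reads equal to 4.05% of the parent's in ERRg and 3.01% in GFP.

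None of the 3 mitochondrially encoded core subunits was called lower in the filtered TMM fit of all libraries, though MT-CO3 was with no low-count filter (-0.25), without GFP replicate 1 (-0.37) and without GFP replicate 2 (-0.30). MT-CO1, the subunit that holds heme a and the oxygen site, had 11960, 13240, 13350 and 14610 CPM in ERRg and 5923, 6565, 8988 and 12070 CPM in GFP. It rose (log2 fold change 0.66, SE 0.163, adjusted p = 0.00104 by edgeR), although GFP replicate 4 lay above ERRg replicate 1. MT-CO2, the subunit that accepts electrons from cytochrome c, had 5584 to 6665 CPM in ERRg and 4418 to 7333 CPM in GFP (0.11, SE 0.129, not called), and was higher under upper-quartile factors (0.41), library totals (0.51) and coding genes alone (0.42). MT-CO3 had 7045 to 8008 CPM in ERRg and 7103 to 11220 CPM in GFP (-0.20, SE 0.124, not called), and was positive under those 3 scalings (0.11 to 0.21). Within a library, core reads per nuclear subunit read came to 26.0, 29.5, 23.9 and 28.3 in ERRg and 9.28, 8.15, 13.0 and 16.6 in GFP. The 2 ranges did not overlap, and this ratio needs no scaling between libraries. It still holds any trend with GC content or length, since the offset fits left out mitochondrially encoded genes. Mitochondrially encoded genes took 7.72% ± 0.540 of gene reads in ERRg and 3.98% ± 1.19 in GFP (SD, n = 4 each).

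Of 20 other genes of the pathway, 19 passed the filter: 15 fell, 3 rose and HIGD1A was not called (0.13, SE 0.090), beside the 35.9% of all genes and 50.7% of nuclear coding genes called lower (38.8% and 28.9% higher). Their median log2 fold change was -0.81. With offsets 10 were lower and 3 higher, where 41.3% of coding genes were lower and 29.2% higher. Of those called with offsets, all but HIGD1A and FDXR had the same call under TMM. FDXR, the reductase that feeds electrons to ferredoxin and named here after its values were seen, was -1.01 under TMM and 0.23 with offsets, both called. HIGD1A was called lower with offsets (-0.32). The 4 lower genes with the smallest p were HIGD2A, a supercomplex factor (-2.005, SE 0.129), TBRG4, which acts in mitochondrial RNA processing (-1.47, SE 0.118), CHCHD2 (-1.40, SE 0.116), which binds the complex, and NDUFA4 (-1.02, SE 0.094), once assigned to complex I and now counted as a subunit of cytochrome c oxidase. NDUFA4 had 177, 168, 200.1 and 183 CPM in ERRg and 357, 427, 353 and 340 CPM in GFP, and its log2 fold change was -1.16 with offsets. The other 3 were smaller in size with offsets, at -0.98 for HIGD2A, -0.43 for TBRG4 and -0.48 for CHCHD2, and were still called. LRPPRC, which stabilises mitochondrial messenger RNAs, rose: it had 388, 375, 307 and 328 CPM in ERRg and 202, 207, 217 and 210 CPM in GFP (0.74, SE 0.091), and 0.37 with offsets. TIMM21, which delivers imported subunits to assembly intermediates (0.38, SE 0.095), and CMC2 (0.32, SE 0.090) also rose, and CMC2 was -0.074 with offsets, not called. ESRRA, a receptor related to ERRg, had a log2 fold change of -0.49 (SE 0.128) under TMM and 0.71 (SE 0.075) with offsets, both called. PPARGC1A, which encodes a coactivator of these receptors, rose on few reads, with 1.98, 1.28, 0.944 and 1.26 CPM in ERRg and 0.50, 0.345, 0.216 and 0.124 CPM in GFP (2.16, SE 0.356).

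The ERRg libraries were not alike for the subunits. Of the 12, 7 stood higher in both of ERRg replicates 3 and 4 than in both of replicates 1 and 2 (58.3%, against 33.8% of all genes tested), and 2 stood lower (16.7%, against 25.5%). The other pathway genes tested split much as the subunits did (57.9% higher and 10.5% lower). Of the assembly factors tested, 35% stood higher and 15% lower. CYCS stood lower in replicates 3 and 4. The share of reads outside exons was 48.3% and 47.3% in replicates 1 and 2, and 45.5% and 45.8% in replicates 3 and 4. Its part in these values was not tested. Reads in pseudogenes of the members, 99 in all, equalled 2.95% of the reads of their parents in ERRg and 0.966% in GFP. The percentage was 34.5% in ERRg and 12.2% in GFP for COX6C, and 7.93% in ERRg and 0.906% in GFP for COX5B, whose counts may be split with these copies.

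Promoter sequences are shown for COX8A, the largest fall under TMM scaling, for COX7A2 and COX18, the other members whose window holds AAGGTCA, and for CYCS, which rose. They run from 250 bases before to 50 after an annotated start (RefSeq, GRCh38.p14), 5′ to 3′ on the gene's strand. For a gene with more than 1 window, as for 6 members, the window with the most motif matches was chosen. The COX7A2 window lies inside the gene's annotated span, 75237675 to 75250323. Capitals mark matches, on either strand, to AAGGTCA (the core of the ERR response element), GCGCATGCG (NRF1) or CCGGAAG (the ETS core that GABP binds). The windows are chr11:63974370-63974669 (plus strand) for COX8A, chr6:75243752-75244051 (minus) for COX7A2, chr4:73069667-73069966 (minus) for COX18 and chr7:25125211-25125510 (minus) for CYCS.
COX8A: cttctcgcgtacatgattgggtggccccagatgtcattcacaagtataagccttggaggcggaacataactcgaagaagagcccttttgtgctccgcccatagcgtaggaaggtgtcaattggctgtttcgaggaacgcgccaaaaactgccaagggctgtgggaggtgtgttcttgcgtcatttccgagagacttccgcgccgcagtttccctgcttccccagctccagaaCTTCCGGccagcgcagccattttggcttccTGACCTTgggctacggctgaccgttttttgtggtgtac
COX7A2: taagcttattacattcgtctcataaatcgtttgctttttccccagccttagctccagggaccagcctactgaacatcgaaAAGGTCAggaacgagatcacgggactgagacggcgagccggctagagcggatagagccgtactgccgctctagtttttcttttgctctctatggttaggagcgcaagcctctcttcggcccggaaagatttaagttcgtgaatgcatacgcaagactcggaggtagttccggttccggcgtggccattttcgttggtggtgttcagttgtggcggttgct
COX18: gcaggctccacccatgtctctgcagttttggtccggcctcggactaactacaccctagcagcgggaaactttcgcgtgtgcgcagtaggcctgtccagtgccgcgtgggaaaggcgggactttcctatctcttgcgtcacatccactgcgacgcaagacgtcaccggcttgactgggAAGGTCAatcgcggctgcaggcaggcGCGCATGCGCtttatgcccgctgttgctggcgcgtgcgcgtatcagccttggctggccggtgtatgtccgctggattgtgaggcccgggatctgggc
CYCS: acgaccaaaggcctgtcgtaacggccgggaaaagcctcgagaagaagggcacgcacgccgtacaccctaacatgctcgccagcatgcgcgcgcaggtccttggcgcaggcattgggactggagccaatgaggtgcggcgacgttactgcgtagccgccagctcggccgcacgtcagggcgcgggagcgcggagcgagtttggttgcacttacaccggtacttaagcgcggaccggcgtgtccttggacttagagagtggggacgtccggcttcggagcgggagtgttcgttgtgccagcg
In COX8A the match to AAGGTCA begins 12 bases after the start on the opposite strand, and a CCGGAAG match lies 18 bases before the start. In COX7A2 the AAGGTCA match lies 170 bases before the start, and in COX18 it lies 73 bases before it, followed by overlapping GCGCATGCG matches on both strands. The CYCS window holds none of the motifs. RefSeq windows were found for 35 of the 40 members, 42 windows in all. AAGGTCA was found in 4 of these windows (9.52%, in 3 members) and in 3.92% of all 35116 promoters. The extended element TCAAGGTCA, which contains AAGGTCA, was in 0 member windows and 0.353% of promoters. GCGCATGCG was in 4 windows (9.52%, in COX17, COX18 and COX6A1) and 1.92% of promoters, and CCGGAAG was in 16 windows (38.1%, in 15 members) and 10.3% of promoters. COX18 has overlapping windows that hold the same AAGGTCA and GCGCATGCG sites, so both of its sites are counted more than once. All promoters were likewise counted by window, over 27305 genes. CCGGAAG matches occurred in members that fell, such as COX8A, COX6B1 and COX5B, in COX20, which rose, and in SCO1 and COX10, which were not called. A match is a run of letters and was not tested as a binding site.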

How the data were processed

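RNA sequencing measured 8 libraries of SH-SY5Y cells. The values that the authors deposited are unnormalised read counts, with genes as rows. The tools named in the submitters' processing notes are HTSeq 0.11.3, STAR 2.7.8a, Trim Galore 0.6.6, CASAVA and DESeq2, on the build GRCh38. Which annotation release was counted, and with which strand setting, is not given in the sources used here. Per the labels' protocols, ribosomal RNA was removed from total RNA before directional library preparation. The 5 lines of the table that name no gene (outside exons 46.7% in ERRg and 20.9% in GFP, ambiguous 5.44% and 12.1%, aligned more than once 6.41% and 11.9%) entered neither library sizes nor tests. A count of 3 reads equals 0.138 CPM in ERRg and 0.0961 CPM in GFP on average.

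The comparison of the counts used the quasi-likelihood test of edgeR 4.0.16 (TMM factors, filterByExpr, Benjamini-Hochberg adjusted p under 0.05, two-sided) in R 4.3.3 over 21993 genes. CPM values use TMM effective library sizes. Offsets were natural splines (5 df) per library on GC content, length and span, from the principal transcript of GENCODE 29. Alternatives, including DESeq2 1.42.0 and limma 3.58.1 (voom), were also run, and the scripts were tested on simulated data. Isoform ratios were compared by exact permutation over 70 arrangements of the libraries. The members, lists and tests were chosen with earlier results of these data known. The genes given with a value for each library are the isoform pairs, CYCS, and the 6 subunits and 6 assembly factors with the largest called fold changes. The 4 other pathway genes with the smallest p in each direction, as far as there were any, were named, and ESRRG, ESRRA and PPARGC1A could be. Library values of PPARGC1A, LRPPRC and NDUFA4 were chosen after their values were seen. Nothing in the labels states that the replicates were separate cultures. The p-values therefore reflect only how far these samples spread, and that spread may be technical. Same-numbered libraries deviated together with r of 0.11, -0.26, -0.16 and -0.075, so the numbers were not taken as pairs.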

Additional observations from a re-analysis of the deposited data

Results flagged for a closer look

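Among 78 groups of 4 libraries checked, 8 held a library that stood apart from the other 3, by its gap to the nearest one against the group's range; chance gives about 1 in 20. COX4I1 had 482 CPM in GFP replicate 2, against 387 to 400.5 CPM in the other GFP libraries. The same library stood apart for COX5A (103 CPM, others 83.3 to 85.3), COX7A2 (372 CPM, others 274 to 289) and COX8A (56.2 CPM, others 36.4 to 39.8). COA1 had 168 CPM in ERRg replicate 4, against 157 to 158 CPM in the other ERRg libraries. COA4 had 95.4 CPM in ERRg replicate 3, against 79.5 to 81.9 CPM, and COX6C had 37.0 CPM in ERRg replicate 1, against 31.5 to 31.7 CPM. COX18 had 32.9 CPM in GFP replicate 4, against 39.5 to 40.5 CPM in the other GFP libraries.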

How the results depend on the processing

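ESRRG, CYCS, MT-CO1 and the count of 11 lower subunits were called the same way when each library was left out (subunits 11 to 11 lower and 0 to 0 higher, CYCS 0.40 to 0.54, MT-CO1 0.45 to 0.83). Leaving out 1 library gave 12 to 12 lower and 1 to 2 higher assembly factors, since COA1 lost its call without ERRg replicate 4 or GFP replicates 1, 2 or 3 (0.14 to 0.25 over the 8 fits). It gave 14 to 15 lower and 2 to 3 higher pathway genes, -0.072 to 0.20 for MT-CO2 (negative without GFP replicate 1) and -0.37 to -0.12 for MT-CO3 (called without GFP replicate 1 or 2). The isoform log2 ratios ranged from 0.62 to 1.03 for COX7A1/COX7A2 and from 0.44 to 0.51 for COX7A2L/COX7A2. Both lost their call without any 1 GFP library (exact permutation, adjusted p 0.0571 to 0.0857) and kept it without any 1 ERRg library (0.0286, the smallest that 7 libraries can give). After adjustment over 2 pairs, either ratio is called only if both reach 0.0286. The lost call therefore does not show that COX7A2L/COX7A2 weakened. COA7 ranged from -0.11 to 0.023, COX11 from -0.11 to 0.023 and SCO1 from -0.080 to 0.014.

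Relative to a log2 fold change of 1, 3 subunits, 0 assembly factors and 3 pathway genes were lower and 0, 1 and 0 higher, with 1692 genes higher and 2302 lower in all. Assembly factors counted higher were 6 under upper-quartile factors, 6 under library totals (7 lower) and 6 with coding genes alone (5474 of 13433 genes). They were 7 with longest-transcript offsets, chosen after seeing the data (29.8% of coding genes). With no low-count filter 1 was higher (9166 of 41858 genes). The number of subunits higher was 1 under each of the 3 offset fits (COX7A1). All genes higher numbered 4225 with a GC offset, 3903 with all offsets, 3992 with longest-transcript offsets and 5474 with coding genes alone, where fewer genes are tested. COX7A1/COX7A2 was 1.80 and COX7A2L/COX7A2 -0.14 with offsets. MT-CO2 was 0.51, 0.42 and 0.41 and MT-CO3 was 0.21, 0.12 and 0.11 under library totals, coding genes alone and upper-quartile factors, and MT-CO3 was -0.25 (called) with no filter.

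Signs turned as follows, and the cause was not tested. With all offsets they were COA1 (-0.083), COA4 (0.094), COA7 (0.21), COX10 (0.21), COX11 (-0.32), COX19 (0.10), COX5A (0.029), COX7A1 (1.04), PET100 (0.17), SCO1 (-0.008), CMC2 (-0.074), HIGD1A (-0.32), FDXR (0.23) and CHCHD4 (0.18). With longest-transcript offsets they were COA3 (0.071), COA7 (0.24), COX10 (0.32), COX19 (0.18), COX5A (0.14), COX7A1 (1.11), PET100 (0.077), SCO1 (-0.020), CMC2 (-0.076), HIGD1A (-0.22), FDXR (0.22) and CHCHD4 (0.26). With a GC offset they were COA7 (0.034), COX10 (0.40), COX11 (-0.48), COX19 (0.23), COX7A1 (0.80), SCO1 (-0.031), CMC2 (-0.008), HIGD1A (-0.44), FDXR (0.18), CHCHD4 (0.016) and PNKD (0.033). Library totals turned COA5 (0.051), COA7 (0.40), COX10 (0.36), COX16 (0.27), COX19 (0.021), COX5A (0.11), COX6C (0.012), COX7A1 (0.13), CMC1 (0.13), CHCHD4 (0.14) and FASTKD5 (0.081). Upper-quartile factors turned COA7 (0.30), COX10 (0.26), COX16 (0.16), COX5A (0.005), COX7A1 (0.032), CMC1 (0.027) and CHCHD4 (0.040), and coding genes alone turned COA7 (0.31), COX10 (0.27), COX16 (0.17), COX5A (0.015), COX7A1 (0.041), CMC1 (0.037) and CHCHD4 (0.050). DESeq2 size factors and its Wald test turned COX11 (-0.029) and SCO1 (-0.015), and no filter turned COX11 (-0.049) and SCO1 (-0.035). A minimum of 1 CPM in 4 libraries turned COA7 (0.11) and COX10 (0.070), and leaving out mitochondrially encoded genes turned COA7 (0.015). Without ERRg replicates 1 and 2, COX10 (0.043), COX11 (-0.11) and SCO1 (-0.026) turned, and without replicates 3 and 4, COA7 (0.003) and PET117 (-0.084) did; these fits were also chosen after seeing the data. Of these, COA7, COX10, COX11, COX16, COX7A1, SCO1, PET117 and HIGD1A were not called under TMM scaling.

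With the replicate number as a block, 11 subunits and 12 assembly factors were lower and 2 higher, 14 other pathway genes were lower, and of the 52 single genes checked the CHCHD4 log2 fold change alone lost its call (adjusted p = 0.0656 by edgeR). The numbers do not pair the samples. Depth limits the isoforms with 38 or fewer reads per group, PET117 and COX7A1.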
